A study of Homo sapiens with 6 samples.

Results

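The genes described here are 49 nuclear genes that encode subunits and assembly factors of respiratory complexes II, III, IV and V, together with cytochrome c. They were taken from the 57123 genes of the count tables by name alone, with older ATP5 symbols allowed, and the rule used no measured value. Complex II contributed 6 genes, complex III and cytochrome c 10, complex IV 17 and complex V 16. RNA was sequenced from HEK293 cells, an established human embryonic kidney line, in 3 libraries labelled WT and 3 labelled MUL1(−/−). MUL1 is an E3 ubiquitin ligase of the mitochondrial outer membrane, and in the MUL1(−/−) cells its gene had been inactivated with CRISPR-Cas9. The study asked how metabolism, respiration included, differs in cells without the ligase. Both genotypes were grown in DMEM with fetal calf serum, glutamine, penicillin and streptomycin, and the labels give no drug, dose or time point. The study's protein work used separate clones, but the sources used here do not say which clone or clones gave the RNA. A difference between the genotypes and a difference between clones therefore cannot be told apart. The study's methods give 3 samples per genotype and speak of independent experiments for its quantitative data in general, but do not say for the RNA libraries that they came from separate cultures, so the p-values measure the spread between these libraries, which may be technical.

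In the inner mitochondrial membrane, complex II passes electrons from succinate to ubiquinone, and complex III passes them on from ubiquinol to cytochrome c. Complex IV, cytochrome c oxidase, hands them to oxygen, and complexes III and IV pump protons as they work. Complex V, the ATP synthase, lets the protons flow back and uses that flow to make ATP. Apart from complex II, whose subunits are all nuclear, each of these complexes joins nuclear subunits to a few that the mitochondrial genome encodes, and each needs assembly factors that insert heme, copper or iron-sulfur clusters or hold unfinished modules together.

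The sum of gene counts ranged from 127015142 to 142803296 in WT libraries and from 121917971 to 122441959 in those labelled MUL1(−/−), with a gene's count summed over its exon bins. Levels are given as CPM, that is counts scaled by TMM to a common library size, and the floor of detection, set at 3 counts, was 0.0212 to 0.0242 CPM. Such limits cover counting error only. MUL1 had 15.4, 15.2 and 19.0 CPM in WT libraries 1 to 3 and 18.7, 16.7 and 19.2 CPM in the libraries labelled MUL1(−/−), so its transcript level does not check the labels, and libraries are called by their labels throughout. The log2 fold change of MUL1, MUL1(−/−) over WT as everywhere below, was 0.14 with an SE of 0.10, and MUL1 was not called (edgeR, adjusted p = 0.321). All 7 HEK293 marker genes examined were tested, and their summed level was 938 to 1169 CPM in WT and 767 to 919 CPM in MUL1(−/−). Most of that sum was VIM, with means of 842 CPM in WT and 665 CPM in MUL1(−/−), lower at a log2 fold change of -0.34. PAX2 and LHX1 were lower at -1.80 and -0.55, and NEFM and CDH2 higher at 1.06 and 0.19. NEFL and INA were not called. The summed levels of 5 blood cell markers were 0.969 to 1.60 and 1.92 to 2.44 CPM, of 5 fibroblast markers 23.9 to 31.5 and 28.0 to 36.8 CPM, of 3 liver cell markers 0.156 to 0.325 and 0.234 to 0.344 CPM, and of 4 muscle cell markers 1.08 to 1.21 and 2.36 to 3.08 CPM. None of these markers was at 0 in all 6 libraries, and the HEK293, blood and muscle sums did not overlap between the genotypes. Single fibroblast markers moved in both directions: LUM (1.17, 1.03 and 1.14 CPM in WT, 7.41, 8.58 and 12.4 CPM in MUL1(−/−)) and DCN were higher by log2 fold changes of 3.09 and 1.30, and THY1 and COL1A1 lower at -1.16 and -0.39. The part of these markers in the results was not tested. The share of counts from the mitochondrial genome was 2.09% to 2.37% in WT and 2.02% to 2.06% in MUL1(−/−).

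Of the 49 genes, 5 rose and 14 fell in the libraries labelled MUL1(−/−), and none changed as much as 2-fold. The genes that rose were SDHA, UQCRFS1, COX10, SCO1 and SCO2, by 23.9% to 50.5%. Those that fell, by 12.6% to 35.1%, included 9 of the 16 genes of complex V. Of the 5 that rose, 3 (COX10, SCO1 and SCO2) were assembly factors that serve the heme a or copper centres of complex IV. COX15, which also serves heme a, fell, and COX11, which also serves copper, was not called. Relative to the median change of their chromosomal neighbours, described below, SCO1, SCO2 and COX10 stood at -0.16, 0.04 and 0.24 on the log2 scale. A gene was called where its adjusted p was under 0.05 in edgeR's quasi-likelihood test over all 25125 genes that passed a filter on low counts. Of the 49 genes, 48 passed it, and COX4I2, an alternative form of the COX4 subunit induced by low oxygen, had 0 counts in every library.

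The 5 genes that rose were 10.4% of the 48 tested, where 18.8% of all tested genes were called higher, and the 14 that fell were 29.2%, where 18.7% of all tested genes were called lower. These genes are well expressed, however. Among the 12505 tested genes at or above the lowest member's mean level of 4.14 CPM, 23.3% were called higher and 24.5% lower, so the share of members that fell lay near that background. That lowest level was of SDHAF2, most of whose bins were left out, and at or above the next level, 14.7 CPM in COX10, 23.4% of 9036 genes were called higher and 23.9% lower. The study's thresholds added an absolute log2 fold change above 1, which 4.23% of all tested genes passed upward and 3.87% downward. No member passed both: the largest absolute log2 fold change was 0.62, 19 members had an unadjusted p under 0.05, and DESeq2 and limma-voom also gave 0. The libraries of the genotypes did not overlap for 8 members that were higher and 17 that were lower in MUL1(−/−), against 24.1% and 24.4% of all tested genes. All 19 called members were among these 25. The median log2 fold change of the 48 was -0.05, beside -0.01 over all tested genes. With counts scaled to library totals instead of TMM factors, the call became 10 higher and 13 lower, as UQCRC1, UQCRQ, CYCS, SURF1 and ATP5MC3 were added to the genes that rose and ATP5MG was lost. That scaling moved the median of all genes by 0.07 on the log2 scale. In bulk RNA, fewer cells of a kind and less RNA per cell cannot be told apart.

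**Figure D1:**
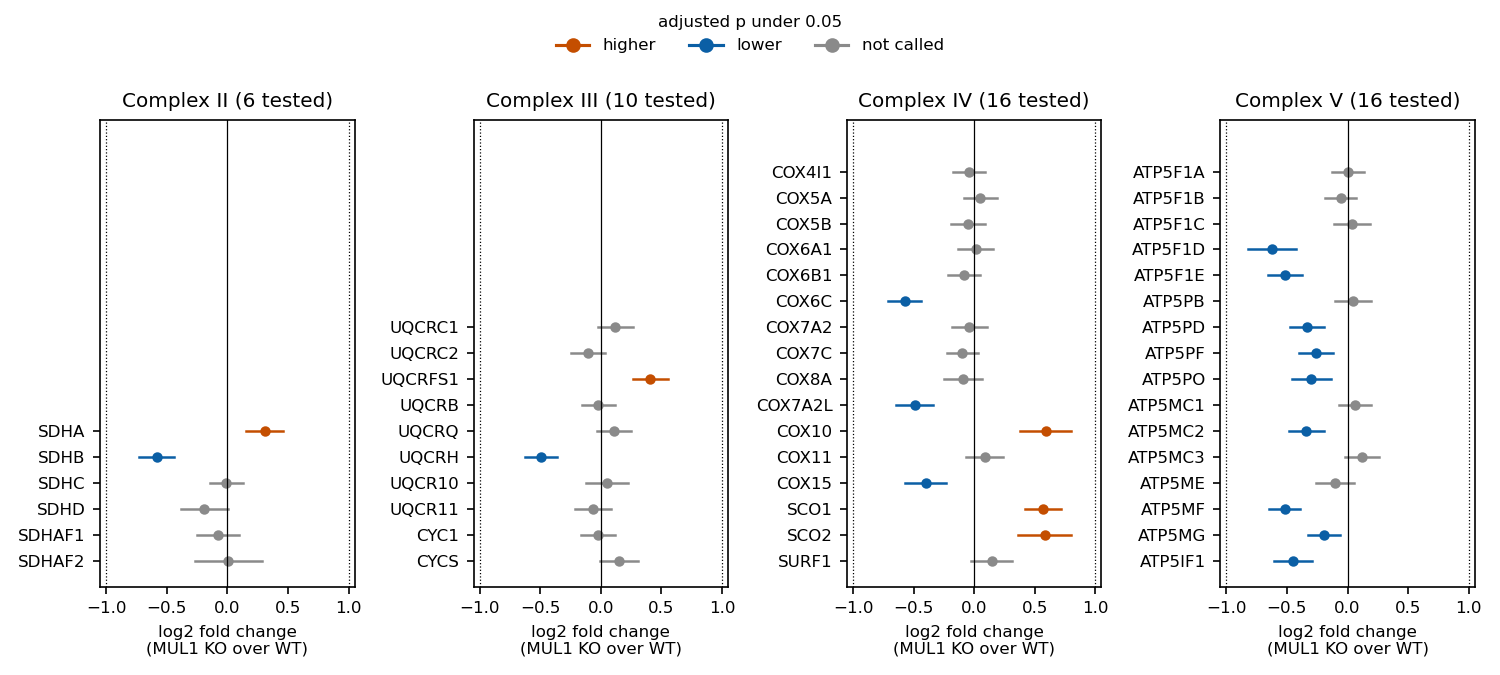
Log2 fold changes (MUL1(−/−) over WT, horizontal axis) of the 48 tested genes of complexes II to V, 1 panel per complex and 1 row per gene, with bars for the 95% confidence interval and dotted lines at the study's threshold of 1 in either direction. Orange points rose, blue points fell and grey points were not called at an adjusted p under 0.05; in complex V, 9 of 16 genes fell and 0 rose, and no point reaches a dotted line.

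RefSeq promoters of GRCh38.p14, from 250 bases before to 50 after the gene start, were at hand for 38 of the 49 genes, and were searched on both strands for the core of GABPA, an ETS factor known to drive many respiratory genes. The core CCGGAAGT, or ACTTCCGG on the other strand, was in the promoters of 13 of the 38, or 34.2%, against 4.95% of 27305 genes with a promoter. It was in 2 of 4 genes that rose, in 4 of 11 that fell and in 7 of 23 that were not called. The windows of the 6 called genes that carried it are shown because genes that rose and genes that fell share the same 8 letters. Each window has 30 bases on the gene's own strand, 5′ to 3′, with the core in capitals.
SCO1, rose, chr17:10697559-10697588, minus strand: gactccttccgACTTCCGGaggaagcggaa
COX10, rose, chr17:14069374-14069403, plus strand: ctttgcggttcCCGGAAGTccttcaggcct
UQCRH, fell, chr1:46303640-46303669, plus strand: gagtgtgccgcACTTCCGGccagatcgccg
COX15, fell, chr10:99732128-99732157, minus strand: ggcggggctcccgctgcccgacCCGGAAGT
ATP5PD, fell, chr17:75047053-75047082, minus strand: cccgggaagatACTTCCGGaaccagccctc
ATP5PF, fell, chr21:25734905-25734934, minus strand: gcgtgtgggggcggagccagggCCGGAAGT
The windows lie within 130 bases before the start that the RefSeq entry gives, which need not be the outermost edge of the gene in the annotation of the counts. Those of UQCRH, SCO1 and ATP5PF fall inside the annotated gene, and those of UQCRH, SCO1, COX10 and ATP5PF touch an annotated exon bin of some gene. ATP5PF has more than 1 RefSeq start, and the core lies before only the innermost.

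Other cores were counted in the same promoters. The palindrome CGCATGCG of NRF1, another activator of respiratory genes, was in 6 of the 38 (15.8%, against 2.46% of all genes), 2 of them among the genes that fell and none among those that rose. AAGATGGC, a form of the YY1 site, was likewise in 6 (15.8%, against 3.52%), of which 1 rose and 3 fell. The core ACGTG of hypoxia response elements, which HIF binds, was in 11 (28.9%, against 24.9%), that is in 0 of 4 genes that rose, 1 of 11 that fell and 10 of 23 not called. Further cores were CGGAAG, which lies within the GABPA core (60.5%, against 22.6%), GCATGC, which lies within the NRF1 palindrome (26.3%, against 8.80%), GGGCGG of SP1 (65.8%, against 48.3%), CCAAT of NFY (36.8%, against 39.7%), GCGTG, another hypoxia response core (52.6%, against 40.6%, in 3 of 4 genes that rose, 7 of 11 that fell and 10 of 23 not called), ATGGCGGC of YY1 (15.8%, against 3.67%) and TGACGTCA, the cAMP response element (7.89%, against 2.25%). All of these are counts of letters without a test, and no binding was measured.

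Complex II, succinate dehydrogenase, is both a citric acid cycle enzyme and an entry point of the respiratory chain, and its catalytic subunits moved in opposite directions. SDHA, the flavoprotein that oxidises succinate (ENSG00000073578, chromosome 5 from 218241 to 256700), had 265, 242 and 228 CPM in WT and 305, 288 and 316 CPM in MUL1(−/−). Every MUL1(−/−) library lay above every WT library, and SDHA rose by 0.31 on the log2 scale (SE 0.07, adjusted p = 0.00306). SDHB, the iron-sulfur subunit that takes the electrons from SDHA (ENSG00000117118, chromosome 1 from 17018722 to 17054170), had 187, 172 and 197 CPM in WT and 123, 125 and 123 CPM in MUL1(−/−). The groups lay far apart, and SDHB fell by 0.58 on the log2 scale (SE 0.07, adjusted p = 9.44e-06), to a fold of 0.667. The membrane anchors and the assembly factors were not called. SDHC, which helps to bind heme and ubiquinone, had a log2 fold change of -0.01 (95% interval -0.15 to 0.13), and SDHD, its partner, one of -0.19 (-0.39 to 0.01, adjusted p = 0.12), although every MUL1(−/−) library was below every WT library. SDHAF1, which serves the iron-sulfur clusters of SDHB, had -0.08 (-0.25 to 0.10), and SDHAF2, which serves the flavin of SDHA, had 0.01 (-0.27 to 0.28) after 85.2% of its bin counts had been left out because the bins touch several genes. Pseudogenes named after SDHA (SDHAP1, SDHAP3 and SDHAP4) held counts equal to 13.5% of the combined total, and adding them to SDHA changed no call.

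In complex III, cytochrome bc1, the Rieske subunit rose and the hinge subunit fell. UQCRFS1, the Rieske iron-sulfur protein that carries electrons towards cytochrome c1 (ENSG00000169021, chromosome 19 from 29205321 to 29213541), had 103, 96.4 and 106 CPM in WT and 138, 130 and 136 CPM in MUL1(−/−). The genotypes did not overlap, and the log2 fold change was 0.41 (SE 0.07, adjusted p = 0.000205). UQCRH, the acidic hinge protein beside cytochrome c1 (ENSG00000173660, chromosome 1 from 46303631 to 46316776), had 461, 445 and 457 CPM in WT and 335, 323 and 310 CPM in MUL1(−/−). All 3 MUL1(−/−) libraries were below the WT libraries, and UQCRH fell by 0.49 on the log2 scale (SE 0.06, adjusted p = 2.06e-05). The other 7 subunits, among them both core proteins and cytochrome c1, were not called, with log2 fold changes from -0.11 in UQCRC2 to 0.12 in UQCRC1. Cytochrome c itself, encoded by CYCS and also a trigger of apoptosis once released, had a log2 fold change of 0.15 (95% interval -0.01 to 0.30, adjusted p = 0.129). CYCS was called higher, with an adjusted p of 0.0239, when WT library 3 was left out.

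In complex IV, 1 of 9 tested subunits fell and none rose, the supercomplex factor COX7A2L fell, and of 6 assembly factors 3 rose and 1 fell. Among all tested genes at or above 4.14 CPM, 23.3% were called higher and 24.5% lower. Neither the difference between these small groups nor their difference from those shares was tested. COX6C, a small nuclear subunit (ENSG00000164919, chromosome 8 from 99873200 to 99894062), had 134, 133 and 135 CPM in WT and 87.5, 89.0 and 93.3 CPM in MUL1(−/−). The WT libraries lay within a narrow band well above the MUL1(−/−) libraries, and COX6C fell by 0.57 on the log2 scale (SE 0.06, adjusted p = 6.6e-06). COX7A2L, which joins complexes III and IV into supercomplexes (ENSG00000115944, chromosome 2 from 42333546 to 42425088), had 90.5, 85.7 and 79.0 CPM in WT and 60.0, 60.3 and 61.3 CPM in MUL1(−/−). It fell by 0.49 (SE 0.07, adjusted p = 6.74e-05), again with no overlap. The other 8 tested subunits had log2 fold changes from -0.10 in COX7C to 0.05 in COX5A.

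The assembly factors that rose serve the heme a and copper centres. COX10, which starts heme a synthesis by farnesylating heme b (ENSG00000006695, chromosome 17 from 14069496 to 14208677), had 12.6, 12.0 and 10.6 CPM in WT and 18.3, 18.8 and 15.8 CPM in MUL1(−/−). It rose by 0.59 on the log2 scale (SE 0.10, adjusted p = 0.000245), with no overlap. COX15, the enzyme of the next step from heme o to heme a (ENSG00000014919, chromosome 10 from 99711844 to 99732100), went the other way, with 51.4, 46.2 and 47.0 CPM in WT and 34.5, 35.8 and 39.1 CPM in MUL1(−/−). COX15 fell by 0.40 on the log2 scale (SE 0.08, adjusted p = 0.000811). Both enzymes carry the GABPA core in the windows printed with the promoters.

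Both metallochaperones that deliver copper to the CuA centre of COX2 rose. SCO1 (ENSG00000133028, chromosome 17 from 10672474 to 10698375) had 54.1, 55.9 and 54.7 CPM in WT and 77.2, 81.7 and 85.5 CPM in MUL1(−/−). The rise of SCO1 was 0.57 (SE 0.07, adjusted p = 1.29e-05). SCO2 (ENSG00000130489, chromosome 22 from 50523568 to 50525606) had 13.9, 12.8 and 14.9 CPM in WT and 20.4, 18.2 and 23.6 CPM in MUL1(−/−), and rose by 0.58 (SE 0.10, adjusted p = 0.000404). In each of the pair the lowest MUL1(−/−) library was above the highest WT library. COX11, which serves the CuB centre, and SURF1, an early assembly factor, were not called, at 0.09 (95% interval -0.06 to 0.24) and 0.14 (-0.03 to 0.31).

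In complex V, 9 of 16 genes fell and none rose, with a median log2 fold change of -0.23 over the 16. Over 17 alternative ways of counting, scaling and testing, between 8 and 9 of them were called lower and the median ranged from -0.25 to -0.16. With library totals ATP5MC3 was called higher. Among all tested genes at or above the lowest member's mean level of 4.14 CPM, 24.5% were called lower and 23.3% higher. The difference between complex V and that share was not tested. Relative to their chromosomal neighbours, given below, some of the complex V genes that fell stood near 0. The catalytic head was split. ATP5F1D, the delta subunit of the rotating central stalk (ENSG00000099624, chromosome 19 from 1241746 to 1244826), had 110, 96.3 and 91.4 CPM in WT and 61.8, 57.8 and 73.6 CPM in MUL1(−/−). It fell by 0.62 (SE 0.09, adjusted p = 9.63e-05). ATP5F1E, the epsilon subunit that sits beside delta on the central stalk (ENSG00000124172, chromosome 20 from 59025467 to 59032382), had 147, 141 and 151 CPM in WT and 104, 98.3 and 104 CPM in MUL1(−/−). It fell by 0.52 (SE 0.07, adjusted p = 2.06e-05), and neither gene overlapped between genotypes. The alpha, beta and gamma subunits of the same head, ATP5F1A, ATP5F1B and ATP5F1C, had log2 fold changes of 0.00 (95% interval -0.12 to 0.13), -0.06 (-0.18 to 0.07) and 0.04 (-0.11 to 0.19).

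The membrane part and the outer stalk of complex V also held genes that fell. ATP5MF, the f subunit of the membrane part (ENSG00000241468, chromosome 7 from 99448475 to 99466331), had 306, 303 and 310 CPM in WT and 216, 209 and 216 CPM in MUL1(−/−). It fell by 0.52 on the log2 scale (SE 0.06, adjusted p = 1.06e-05), and the spread within either genotype was small beside that fall. The g subunit ATP5MG, also of the membrane part, had 242, 238 and 235 CPM in WT and 205, 203 and 216 CPM in MUL1(−/−), and its fall of 0.19 (SE 0.06, adjusted p = 0.0232) was the smallest of those called. The call of ATP5MG was lost without WT library 1 or 2 and without MUL1(−/−) library 1 or 2, and with 4 other settings. The e subunit ATP5ME was not called at -0.10 (95% interval -0.26 to 0.05). Of the 4 peripheral stalk subunits, which hold the head still against the turning rotor, ATP5PD (-0.33), ATP5PO (-0.30) and ATP5PF (-0.26) fell, and ATP5PB, the b subunit, had 0.04 (-0.11 to 0.20).

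The c ring, which turns as protons pass, is built of 1 protein made from 3 genes, and these did not move together. ATP5MC2 fell from 268, 256 and 236 CPM in WT to 202, 193 and 206 CPM in MUL1(−/−), which is -0.34 on the log2 scale (SE 0.07, adjusted p = 0.00107). ATP5MC1 and ATP5MC3 had log2 fold changes of 0.06 and 0.12 and were not called, although in both the MUL1(−/−) libraries lay above the WT libraries. ATP5IF1, the inhibitor that stops the synthase from hydrolysing ATP when the membrane potential collapses, had 126, 117 and 138 CPM in WT and 92.9, 92.3 and 93.0 CPM in MUL1(−/−). It fell by 0.45 on the log2 scale (SE 0.07, adjusted p = 0.000169), with no overlap.

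**Figure D2:**
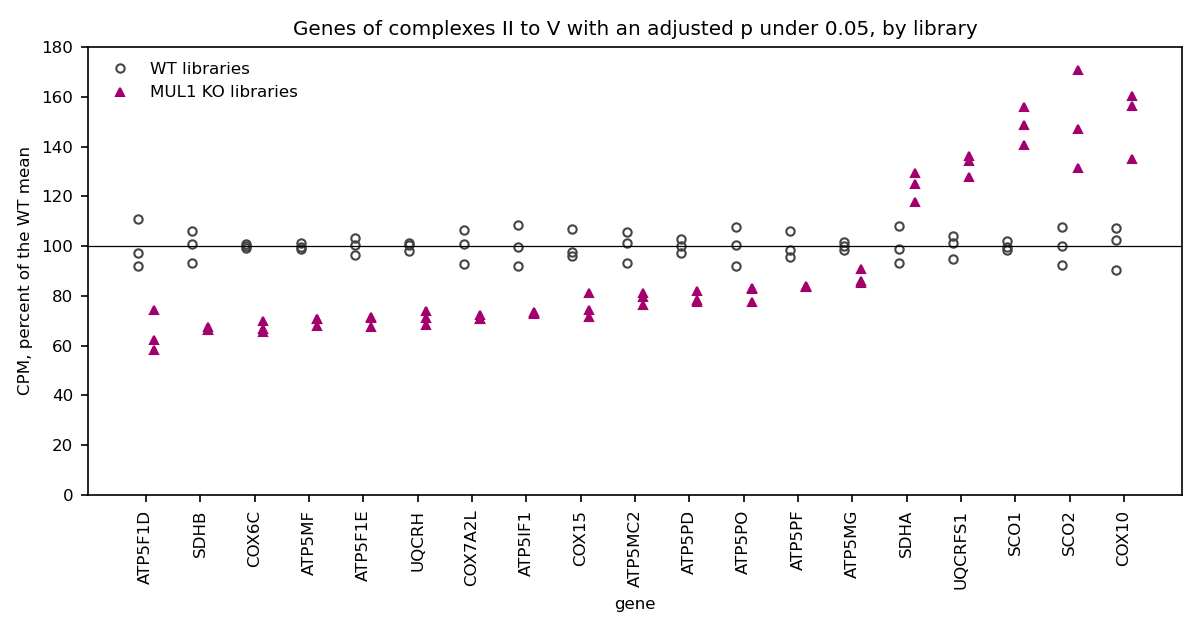
CPM of the 19 called genes in each library as a percentage of the gene's WT mean (vertical axis, from 0), with open circles for the 3 WT libraries, filled triangles for the 3 libraries labelled MUL1(−/−), and genes ordered along the horizontal axis by log2 fold change. In all 19 genes the triangles stand apart from the circles, from ATP5F1D on the left, which fell by 0.62 on the log2 scale, to COX10 on the right, which rose by 0.59.

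The 29 tested genes that were not called had log2 fold changes from -0.19 to 0.15. Their 95% intervals reached from -0.39 at the lowest, in SDHD, to 0.31 at the highest, in SURF1. A missed threshold therefore leaves changes up to that size possible in some of them. In 6 of the 29 the genotypes did not overlap: UQCRC2, COX7C and SDHD were lower, and UQCRQ, ATP5MC1 and ATP5MC3 higher, in every MUL1(−/−) library. The coefficient of variation within a genotype had a median of 4.60% in WT and 3.32% in MUL1(−/−) over the 48 genes, with highest values of 13.4% and 13.2%. The summed level of all members was 9776 to 10261 CPM in WT and 9460 to 9575 CPM in MUL1(−/−).

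Several of the called genes lie in stretches where neighbouring genes moved the same way. For each gene the median log2 fold change of up to 10 tested genes on either side was taken. ATP5F1D fell by 0.62 while all 20 of its neighbours were called lower with a median of -1.57, so relative to them its difference was 0.94. SDHB, at -0.58, had a neighbour median of -0.57 with 12 of 20 called lower, and ATP5IF1, at -0.45, one of -0.45 with 11 of 20 called lower. Both of these genes lie on chromosome 1 and differed little from their surroundings. MUL1, the inactivated gene, lies between them on that chromosome, from 20499448 to 20508161. Its neighbours had a median of -0.54, with 14 of 20 called lower and 0 higher. Whether the inactivation and this stretch are linked was not tested. On chromosome 17, 14 of the 20 neighbours of SCO1 were called higher with a median of 0.73, so relative to them SCO1 stood at -0.16, and 6 of the 20 neighbours of COX10 were higher with a median of 0.35, which left 0.24. SCO2 had 13 of 20 neighbours called higher and a median of 0.54, which left 0.04, and COX15 had 10 of 20 called lower and a median of -0.34, which left -0.06.

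Other genes stood apart from their surroundings. UQCRH fell by 0.49 in a stretch with a median of 0.17, a difference of -0.66, and COX6C and COX7A2L both kept -0.38 after their neighbour medians of -0.19 and -0.11 were subtracted. ATP5MF kept -0.29, SDHA 0.30 and UQCRFS1 0.26, beside neighbour medians of -0.23, 0.01 and 0.15. ATP5F1E, at a neighbour median of -0.39, kept -0.13. Further complex V genes that fell stood, relative to their neighbours, at -0.26 (ATP5PD), -0.22 (ATP5MG), -0.12 (ATP5PF), -0.08 (ATP5MC2) and 0.02 (ATP5PO). In all, the direction held after subtraction in 4 of the 5 genes that rose and 11 of the 14 that fell, 10 of the 19 stood at least 0.2 from their neighbours, 9 of them in the direction of their call and ATP5F1D in the other, and 6 had at least 50% of their neighbours called the same way. The reverse case was COX5A, a matrix-side subunit of complex IV, which was not called at 0.05 although 13 of its 20 neighbours were called higher with a median of 0.44. These subtracted values have no test, and what sets the level of a stretch was not tested.

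**Figure D3:**
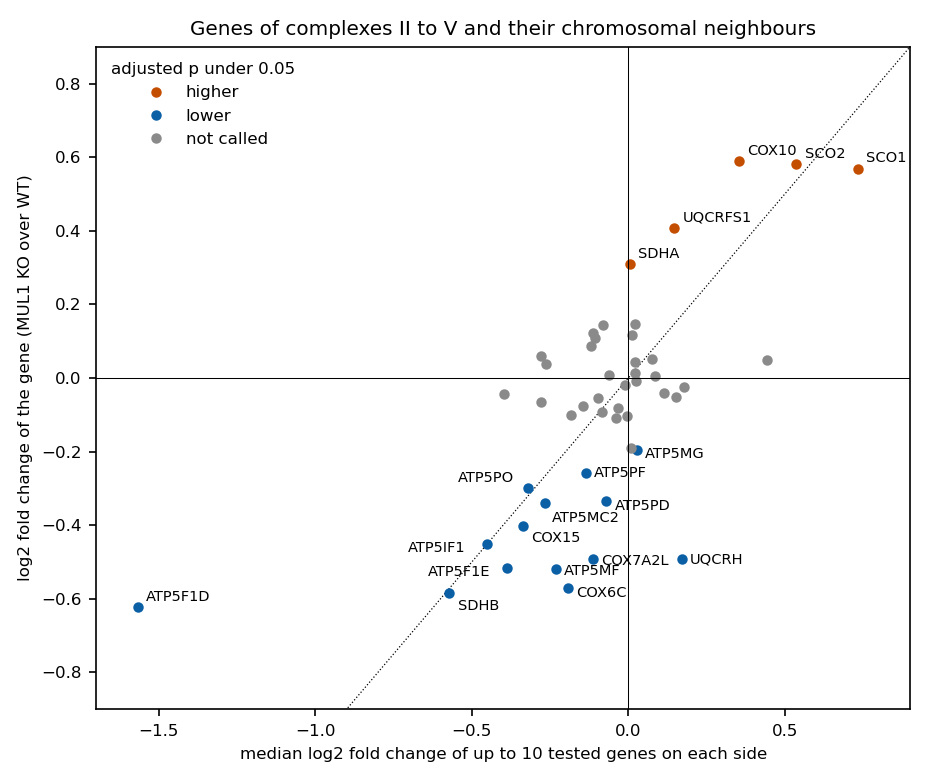
Log2 fold change of each of the 48 tested genes (vertical axis) against the median log2 fold change of up to 10 tested genes on each side along the chromosome (horizontal axis), with a dotted line where the values are equal and colours for the call at an adjusted p under 0.05. SDHB, ATP5IF1 and SCO2 lie close to the line, ATP5F1D lies far to the left at -1.57, and UQCRH fell beside neighbours with a median of 0.17.

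Within the called genes, the exon bins with a mean of at least 50 counts mostly moved together. Every such bin was higher in MUL1(−/−) in all 5 genes that rose, for example 31 of 31 in SDHA and 11 of 11 in SCO1, and every such bin was lower in 11 of the 14 that fell, for example 14 of 14 in SDHB and 12 of 12 in UQCRH. The exceptions were ATP5MG, with 2 of 16 bins higher, ATP5PF, with 1 of 15, and ATP5PO, with 1 of 7. Some genes that were not called did the same, as with 35 of 36 bins lower in ATP5F1B and 13 of 13 higher in SURF1. Others did not, as with 8 of 16 bins higher in SDHC. The bins are parts of the same summed counts, so their agreement is no separate support for a call. Overlapping genes limit some values. Identical stretches annotated on both strands gave 11 bin pairs with at least 100 counts in the larger bin, and the smaller count was at least 0.9 of the larger in all 11, so reads of genes on opposite strands were not told apart there. ATP5MG, SCO2, UQCRQ, COX15 and ATP5ME had 84.0%, 80.0%, 66.9%, 55.7% and 51.0% of their counts in bins that another gene also covers. With only the bins that no other gene covers, SCO2 kept a log2 fold change of 0.52 (adjusted p = 0.00395) and COX15 one of -0.46 (adjusted p = 0.000987), while ATP5MG had -0.12 (adjusted p = 0.218, edgeR). ATP5PO had 86.0% of its bin counts left out because the bins touch several genes, and with those bins counted for each gene it had -0.29 (adjusted p = 0.00223). UQCR11, COX6A1, COX8A, SDHD and ATP5MF had 64.1%, 56.1%, 44.2%, 39.8% and 35.5% left out. With such bins counted, SDHD had -0.12 (edgeR, adjusted p = 0.243) and ATP5MF -0.51 (edgeR, adjusted p = 1.44e-05). UQCR11, COX6A1 and COX8A were again not called.

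The mitochondrially encoded partners of these complexes were fewer and 4 of 6 fell, with none higher: MT-CO3 by 0.30, MT-CO1 by 0.16, MT-ATP6 by 0.28 and MT-ATP8 by 0.32 on the log2 scale, the first pair being core subunits of complex IV and the second pair subunits of the membrane part of complex V. MT-CO2, the CuA subunit that SCO1 and SCO2 serve, had 0.03, and MT-CYB, the cytochrome b of complex III, had 0.02. Neither was called. Relative to their neighbours on the mitochondrial genome, with medians of -0.28 to -0.23, MT-CO3, MT-ATP6 and MT-ATP8 stood at -0.06, -0.05 and -0.05. MT-CO1 stood at 0.10, MT-CO2 at 0.30 and MT-CYB at 0.29. Of those neighbours, 8 of 12 for MT-CYB and 9 to 12 of 20 for the others were called lower, and 0 higher. At or above 4.14 CPM, 24.5% of all tested genes were called lower, and the difference from 4 of 6 was not tested.

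Assembly factors outside the 49 genes moved in both directions. In complex II, SDHAF4, which guards free SDHA, fell by 0.78 (SE 0.17, adjusted p = 0.00221), from 17.4, 16.9 and 11.2 CPM in WT to 9.10, 10.8 and 6.59 CPM in MUL1(−/−), and SDHAF3 fell by 0.30, which makes 2 of 2 lower. SDHAF3 lies in a stretch with a neighbour median of -0.39 and 11 of 20 called lower, which left 0.08. SDHAF4 kept -0.63 beside a neighbour median of -0.15. In complex III and cytochrome c maturation, 2 of 7 rose and 2 fell. TTC19, which clears fragments of the Rieske protein, rose by 0.71 (SE 0.07, adjusted p = 2.24e-06), from 65.3, 59.7 and 57.9 CPM to 96.1, 102 and 101 CPM, and UQCC3, which serves cytochrome b, by 0.45 with 99.5% of its counts in shared bins. UQCC1, another cytochrome b factor, fell by 0.52, and HCCS, which attaches heme to cytochromes c and c1, fell by 0.40. In complex IV, 5 of 23 further assembly factors rose (COA3, COA6, PET100, TACO1 and FDX2) and 3 fell (COX20, LRPPRC and FDXR), and 0 of 4 further tested subunits were called. In complex V, ATPAF1 and ATPAF2, chaperones of the beta and alpha subunits, rose by 0.24 and 0.62 and TMEM70 by 0.43, whereas ATP5MK, a small membrane subunit, fell by 0.68 (SE 0.07, adjusted p = 1.76e-06), FMC1 by 0.59 and DMAC2L by 0.32. The neighbour medians of TTC19 and ATPAF2, on chromosome 17 like SCO1 and COX10, were 0.51 and 0.60. Those of PET100 and FDX2 were 0.64 and 0.54, with 12 and 13 of 20 neighbours called higher. COA3, COA6 and TACO1 had neighbour medians of 0.03, 0.29 and -0.21. UQCC3, ATPAF1 and TMEM70, which also rose, had -0.18, 0.05 and 0.08. Among the genes that fell, UQCC1, HCCS, FMC1, ATP5MK and FDXR had neighbour medians of -0.35, -0.22, -0.30, -0.28 and -0.26. Relative to them these genes stood at -0.17, -0.17, -0.29, -0.40 and 0.03. LRPPRC, DMAC2L and COX20, which also fell, had neighbour medians of -0.13, -0.06 and 0.02. COX20, PET100 and DMAC2L had 95.9%, 73.6% and 50.6% of their counts in shared bins. None of these genes passed both of the study's thresholds. Of all tested genes, 18.8% were called higher and 18.7% lower, and at or above 4.14 CPM 23.3% and 24.5%. The counts in these lists were not tested against those shares.

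**Figure D4:**
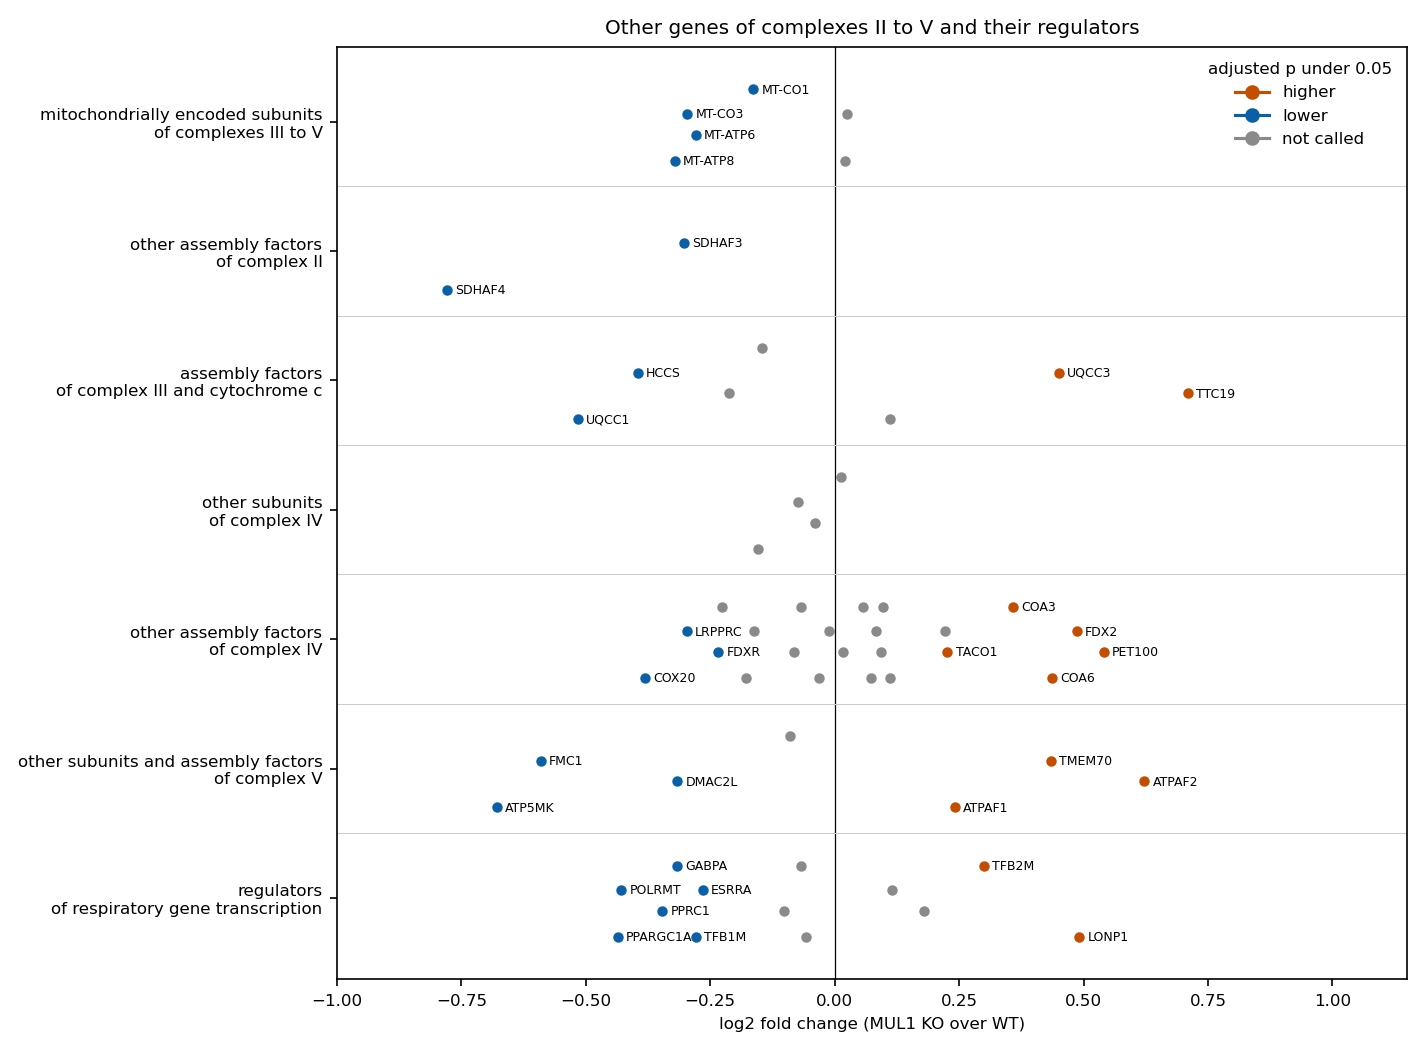
Log2 fold changes (horizontal axis) of the tested genes of 7 lists of other subunits, assembly factors and regulators of complexes II to V, 1 band per list, with points spread vertically only to separate them and names beside those called at an adjusted p under 0.05. The mitochondrially encoded list has 4 genes that fell and none that rose, whereas the further assembly factors of complex IV have 5 that rose and 3 that fell.

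Among 13 regulators of respiratory gene transcription and mitochondrial transcription, 2 rose and 6 fell. Of all tested genes at or above 4.14 CPM, 23.3% were called higher and 24.5% lower. GABPA, the factor whose core was searched in the promoters, had 84.2, 80.5 and 81.6 CPM in WT and 58.8, 65.4 and 73.6 CPM in MUL1(−/−). It fell by 0.32 (SE 0.08, adjusted p = 0.00613), and 37.2% of its counts were in bins shared with another gene. The start of ATP5PF lies within the annotated span of GABPA on chromosome 21, from 25734570 to 25772460, and 28.9% of the counts of ATP5PF were shared. POLRMT, the mitochondrial RNA polymerase, fell by 0.43 (SE 0.08, adjusted p = 0.000419), with 152, 136 and 127 CPM in WT and 103, 97.2 and 108 CPM in MUL1(−/−). The coactivators PPARGC1A and PPRC1 fell by 0.44 and 0.35, the nuclear receptor ESRRA by 0.27, and the mitochondrial transcription factor and rRNA methyltransferase TFB1M by 0.28. TFB1M was close to the threshold (edgeR, adjusted p = 0.0476), and its libraries overlapped between the genotypes. It had 22.3, 21.7 and 18.0 CPM in WT and 16.1, 19.3 and 15.7 CPM in MUL1(−/−). PPRC1 lies in a stretch with 19 of 20 neighbours called lower and a median of -0.49, which left 0.14. POLRMT, PPARGC1A, ESRRA and GABPA had neighbour medians of -0.27, -0.22, -0.17 and -0.14, which left -0.16, -0.22, -0.09 and -0.18. TFB1M kept -0.35 beside a neighbour median of 0.08. LONP1, a matrix protease, rose by 0.49 (SE 0.10, adjusted p = 0.000972) in a stretch of chromosome 19 with a neighbour median of 0.64, and TFB2M, a partner of the polymerase at mitochondrial promoters, rose by 0.30. NRF1, YY1 and TFAM had log2 fold changes of 0.12, -0.07 and -0.06 and were not called.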

How the data were processed

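The files deposited by the authors hold unnormalized read counts of 597973 exon bins under 54848 identifiers of a flattened annotation. The submitters' processing notes name Trimmomatic 0.36, STAR 2.5.2b and GRCh38, and the counting program and annotation release are not given in the sources used here. Bins were summed per gene, in which a read spanning several bins enters more than once, so sums exceed the number of reads. Of the identifiers, 2031 join overlapping genes, and their bins were divided by the same-strand exons of GENCODE 29. Bins touching several genes of an identifier, 4.35% to 4.44% of counts, were left out. Neighbour medians and promoter matches were computed from the same table and from RefSeq.

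Counts were tested with edgeR 4.0.16 in R 4.3.3 (TMM factors 0.946 to 0.992 in WT and 1.02 to 1.03 in MUL1(−/−), filterByExpr, quasi-likelihood test, Benjamini-Hochberg adjustment over all 25125 tested genes). The study used DESeq2's Wald test, which was an alternative here (DESeq2 1.42.0), as were limma-voom (limma 3.58.1), RLE factors, library totals, other filters on low counts, the replicate number as a block, each library left out in turn, the most counted bin, only unshared bins and added pseudogenes. Counting bins of several genes for each of them was chosen after seeing the data. Tests were tested on simulated data with log2 changes of 1 and 2, where edgeR recovered 63 and 96 of 100 changed genes. Changes as small as those of the members, at most 0.62, were not simulated. Replicates differed by 2.85 to 10.7 times their sampling noise (chi-square over its degrees of freedom) and were kept as separate samples. Tables and figures used Python 3.11.15, pandas 2.3.3, numpy 2.4.6, scipy 1.17.1 and matplotlib 3.10.9.

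The members and gene lists were chosen with earlier results of these data known. Genes named in full are MUL1, COX4I2, any member past both thresholds, and in each complex up to 3 called members per direction with the smallest p; the remaining members are given by counts and ranges, and by name where a count is small. ATP5MG, ATP5MC2, ATP5IF1, COX5A, the further assembly factors and regulators given with values, and the promoters printed were chosen after their values were seen.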

Additional observations from a re-analysis of the deposited data

How the results depend on the processing

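Of the 19 called members, 18 were called in all 17 alternatives, and ATP5MG was lost with library totals, without a low-count filter, with the most counted bin, with only unshared bins, and without WT library 1 or 2 or MUL1(−/−) library 1 or 2. With library totals 10 members were called higher in place of 5. Without each library in turn, 5 to 6 members were called higher and 13 to 14 lower, and 7363 to 9630 genes were called in all, beside 9422 with every library. After the neighbour median was subtracted, 4 of the 19 changed sign, SCO1 at -0.16, ATP5F1D at 0.94, ATP5PO at 0.02 and ATP5IF1 at 0.00. With the replicate number as a block, 9267 genes were called, 5 members higher and 14 lower. The numbers did not pair the samples: deviations of same-numbered libraries from their group means correlated at r = -0.0812 to 0.157 across 15858 genes (mean 0.0588, against -0.0262 for different numbers). The lowest mean of the 48 tested members was 4.14 CPM, against a floor of 0.0212 to 0.0242 CPM. With 3 libraries a genotype, the intervals of the genes not called had bounds from -0.39 to 0.31. The widest single interval among them was -0.27 to 0.28, in SDHAF2. The causes of these changes between settings were not tested.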
